A study of Mus musculus with 4 samples.

Results

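TBX5 peaks around Grem1, Bmp2, Bmp4 and Bmp7 were described in the forelimb bud of the mouse embryo. Their peaks were found by position alone, as the summits of the deposited list that fall in 4 windows, 1 around each gene, and 47 of the 11224 listed peaks were members. The Grem1 window held 9 peaks, the Bmp2 window 9, the Bmp4 window 17 and the Bmp7 window 12. ChIP-seq, in which DNA bound by a protein is recovered with an antibody and sequenced, was done on whole forelimbs of wild type outbred ICR embryos at embryonic day 10.5. Libraries were made from chromatin recovered with a polyclonal antibody to TBX5 (2 libraries) and from input (2 libraries), which is sheared chromatin of the same tissue and stage, likewise from wild type ICR embryos. No mutant, transgene or treatment was part of the design, and the labels do not say how many embryos went into a library or whether the replicates came from separate pools. Whole forelimbs mix mesenchyme with the ectoderm that covers it, so a peak cannot be assigned to either layer.

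The list gives 1 value per peak for both ChIP replicates together, so no spread between replicates and no test between groups could be computed, and every comparison is a description. The depth of sequencing is not known from it. Each peak's strength is its deposited signal value, on the authors' own scale. The deposited score records how well a peak recurred between the replicates by the irreproducible discovery rate (IDR), from 540 at an IDR of 0.05 to a ceiling of 1000.

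Bone morphogenetic proteins (BMPs) are secreted ligands that signal through paired type I and type II receptor kinases to SMAD proteins in the nucleus. BMP2, BMP4 and BMP7 are made in the limb bud mesenchyme and in the apical ectodermal ridge, where they act on patterning, on the upkeep of the ridge, on cartilage formation and on the death of cells between the digits. Gremlin 1, the product of Grem1, is a secreted antagonist that binds these ligands outside the cell, and in the limb bud it links sonic hedgehog signalling in the posterior mesenchyme to fibroblast growth factors in the ridge. TBX5 is a T-box transcription factor of the forelimb field, and T-box proteins bind DNA that carries the core GGTGT.

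Positions of the list are given as deposited. The library names and the submitters' processing notes name mm10 (GRCm38), whereas the windows and the approximate gene positions used here are on mm9, the build before it. On chromosome 2 the summits met start sites of GRCm38 most often after a shift. Within 20 Mb of the Bmp2 position, 199 summits were moved in 1 kb steps over 1 Mb to either side. A shift of 174 kb gave the most summits within 1 kb of a RefSeq start site of GRCm38.p6, 26, against 8 with no shift and at most 15 at shifts more than 2 kb away from it. Around Bmp7 the best shift was also 174 kb, with 19 summits against 6 unshifted and 16 at the next best. The same shift led around Grem1, in a region that partly overlaps that of Bmp2, but by 14 to 13. Around Bmp4 no shift stood out. The best there, -218 kb, gave 11 summits, against 10 at the next best and 2 unshifted. The placement of the Bmp4 window therefore rests on the mm9 position alone. No peak was assigned to an exon, an intron or an untranslated region, and peak sequences were not read, for want of a genome of that build.

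Promoter sequences of 2 of the 4 genes were in the RefSeq promoter table of GRCm38.p6, whose start sites were used only for the shift count. The 4 windows, their members and the distances were placed by the mm9 positions, not by these promoters. Each sequence shown is the 250 bases before the start, 5′ to 3′, with any T-box core GGTGT, searched on both strands, in capitals. Their coordinates are on GRCm38.p6 and were not converted to the positions of the list. The Grem1 promoter is chr2:113758649-113758898 and the Bmp4 promoter chr14:46390670-46390919, both on the minus strand.
Grem1: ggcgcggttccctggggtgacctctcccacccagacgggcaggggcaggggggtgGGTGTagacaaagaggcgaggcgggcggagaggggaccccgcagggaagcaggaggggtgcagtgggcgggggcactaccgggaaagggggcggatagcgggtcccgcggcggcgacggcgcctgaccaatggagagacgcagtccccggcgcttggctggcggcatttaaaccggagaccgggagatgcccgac
Bmp4: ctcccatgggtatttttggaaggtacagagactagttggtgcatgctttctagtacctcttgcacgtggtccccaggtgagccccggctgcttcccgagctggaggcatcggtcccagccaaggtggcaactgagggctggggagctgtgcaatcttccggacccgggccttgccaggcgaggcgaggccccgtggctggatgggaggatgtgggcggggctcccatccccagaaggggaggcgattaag
The Grem1 promoter held 1 core, on the strand printed, which begins 195 bases before the start, and the Bmp4 promoter held 0. Of the 32851 promoters of the table, 36.2% had a core on either strand in the same 250 bases, so a match of this kind is common and does not by itself mark a binding site. In the list, no summit lay within 25 kb of the stated Grem1 position, and the Bmp4 position is known too coarsely to say whether a peak lies on the promoter.

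Around Grem1, the antagonist, 9 peaks lay between 113338406 and 113887910 on chromosome 2, in a window from 113 to 114 Mb with the gene near 113.59 Mb. Peaks were unevenly placed on its sides. On the lower side, 7 summits spread over 226.4 kb, and on the higher side there were 2. In the gene order of RefSeq, Fmn1 is the neighbour of Grem1 on the lower side and Scg5 on the higher side. Fmn1 encodes formin 1, an actin nucleator, and its gene is known to hold limb enhancers of Grem1. The peaks of the lower side were not placed inside or outside Fmn1, as no annotation of the list's build was used.

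The strongest Grem1 peak was chr2:113416388-113416533, with its summit at 113416454, a signal of 56.5 and a score of 1000. The next was chr2:113533644-113533785, whose signal was 55.7. These were followed by a peak at chr2:113421629-113422044 with a signal of 44.4, which was 5383 bp from the strongest one and formed with it the only pair of summits within 10 kb in the window. Further peaks on the lower side had signals of 43.8 (summit 113338406), 37.9 (113446006) and 36.1 (113514862). All 6 of these had the ceiling score of 1000, and all 6 exceeded the list median signal of 27.2. That score was given to 45.4% of all listed peaks and to every member of the 4 windows with a signal above 32. Its share among all listed peaks above that signal was not counted.

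The peak closest to the stated Grem1 position, at chr2:113564574-113564989 and about 25.2 kb from it, was the weakest of the window. Its signal was 22.6 and its score 716. On the higher side the summits at 113689156 and 113887910 had signals of 29.6 and 28.7 and scores of 986 and 944. The 6 peaks with the ceiling score therefore all lay on the lower, Fmn1 side, between 113338406 and 113533728. Over the whole window the median signal was 37.9, a value at or above that of 72.3% of listed peaks.

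The first Grem1 peak followed a long stretch without any listed summit. The next summit below it was at 110397652, 2.94 Mb away, and of 11204 distances between neighbouring summits in the list, 69 (0.616%) were at least as long, against a median of 63.5 kb. Assembly gaps and sequence that reads cannot be mapped to were not set apart in this count. Above the window the next summit was 159.6 kb from the last Grem1 peak, at 114047520 with a signal of 14.7.

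Among the ligand genes, Bmp2 had the sparsest window. Its 9 peaks were spread over 1002 kb between 132944746 and 133947230 on chromosome 2, in the longest of the windows, from 132.8 to 134.2 Mb with the gene near 133.38 Mb. No summit lay within 50 kb of the stated Bmp2 position. The nearest were at 133461401, about 81.4 kb above it with a signal of 23.7, and at 133225187, about 155 kb below it with a signal of 31.7. In RefSeq's gene order the neighbours of Bmp2 are Fermt1 below and Hao1 above.

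A single peak stood above the others of the Bmp2 window. It was chr2:133564856-133565034, with a summit at 133564916, a signal of 70.1 and a score of 1000, and it ranked 814 in the list. Its signal was 2.72 times the median of the window (25.7), and the second strongest, chr2:133224979-133225394, had 31.7. The remaining 7 had signals between 20.7 and 29.1 and scores between 643 and 877, so 2 of 9 peaks reached the ceiling score. The signals 29.1 (133628653), 27.6 (133108714) and 25.7 (133136919) completed the 5 strongest, and the weakest was the last peak of the window, at chr2:133947022-133947437 with a score of 643.

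Bmp2 was also the window without close summits. The smallest distance between neighbours was 28205 bp and the largest 274.2 kb, and 0 of its 9 peaks had another summit within 10 kb. The strongest peak lay 103.5 kb from the nearest below and 63.7 kb from the nearest above. Outside the window the closest summits were at 132607444 (signal 19.98) and 134469536 (signal 21.1), against 20.7 for the weakest member.

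Around Bmp4, 17 peaks were listed on chromosome 14 between 46811868 and 47338484, in a window from 46.6 to 47.4 Mb with the gene stated near 47.0 Mb. That position is rounded to 100 kb, so distances from it are rough. The count was the highest of the 4 windows as placed on mm9, but with the list taken as GRCm38 it would be 5, the lowest of the 4. Of the 17 peaks, 13 lay in 151.8 kb between 47186694 and 47338484, at the upper end, while 3 lay below 47 Mb and 1, at 47016686, was the closest to the stated position. No summit was listed over the 170.0 kb between that peak and the start of the dense stretch. RefSeq's gene order places Ddhd1 below Bmp4 and Cdkn3, a phosphatase gene of the cell cycle, above it.

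The densest run was at chr14:47224794-47225963, where 4 summits fell within 927 bp. In order along the chromosome their signals were 55.7, 21.4, 75.9 and 56.6, with scores of 1000, 780, 1000 and 1000. The third of these, chr14:47225556-47225818, was the strongest peak of the window and ranked 668 in the list. The intervals of the first pair overlapped by 74 bp and those of the second pair by 38 bp, while the pairs were separate from each other. Joined where intervals overlap or touch, the run comprised 2 sites.

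Outside that run the strongest Bmp4 peak was the first of the window, chr14:46811742-46811999, with a signal of 65.2 and a score of 1000. The peak closest to the stated gene position, chr14:47016648-47016789, had a signal of 47.0 and a score of 1000. At the upper end the peaks at 47338284 and 47326238 had signals of 49.2 and 41.6, both with the ceiling score. The lower side held a further 2 peaks, at 46868048 and 46947965, with signals of 29.3 and 23.4.

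The Bmp4 window also held the weakest members. The lowest signal, 5.97, was that of chr14:47326231-47326646, whose summit lay 201 bp from the peak of signal 41.6 and whose q-value was 0.695. The peak at 47281655 had a signal of 6.42 and a q-value of 0.615, and that at 47195461 a signal of 6.78 and a q-value of 0.545. Signals thus spanned 12.7-fold, from 5.97 to 75.9, with a median of 27.2, equal to that of the list at this rounding. In 5 of the 17 Bmp4 peaks a stronger summit lay within 500 bp, and in those 5 pairs the weaker signal was between 0.144 and 0.745 times the stronger. Over all members such a neighbour was present for 6 of 47 (12.8%, exact 95% Clopper-Pearson interval 4.83 to 25.7%), against 10.1% of listed peaks. The interval treats peaks as independent, which neighbouring summits need not be. The peak at 47338484 reached the ceiling score with a signal of 11.1, 200 bp from the summit of signal 49.2.

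Bmp7 had 12 peaks on chromosome 2 between 172449459 and 172997146, in a window from 172.3 to 173.1 Mb with the gene stated near 172.7 Mb, a position also rounded to 100 kb. They formed 3 groups. The lowest comprised 5 summits over 115.8 kb, the next 6 summits over 68.5 kb around the stated position, and the last was a single peak 235.6 kb above the others. Tfap2c, which encodes an AP-2 transcription factor, precedes Bmp7 in RefSeq's gene order, and Spo11, which encodes the enzyme that makes meiotic double-strand breaks, follows it.

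The single upper peak, chr2:172997036-172997272, was the strongest of all 47 members. Its summit was at 172997146, its signal was 109.6 and its score 1000, and it ranked 206 among the 11224 listed peaks. That was 4.03 times the list median and 3.26 times the median of its own window (33.6). The second strongest, chr2:172553685-172554100, had a signal of 55.8.

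Around the stated Bmp7 position the summits were at 172693087, 172710282, 172750648, 172759314, 172759517 and 172761582, with signals of 27.8, 39.3, 26.6, 48.8, 10.4 and 19.5. The first of them, chr2:172692879-172693294, was the nearest to the stated position and had a score of 984. The last 4 fell within 10.9 kb, the densest run of the window, at chr2:172750440-172761789. Only the summits at 172759314 and 172759517 were within 500 bp of each other, at 203 bp, and the weaker of them, the weakest of the window, had 0.214 times the signal of the stronger, a score of 1000 and a q-value of 0.0663. In the lowest group the summits at 172486662 and 172500774 had signals of 46.0 and 44.5 with scores of 1000, and the other 2 besides the peak of 55.8 had 20.5 and 27.9.

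**Figure D1:**
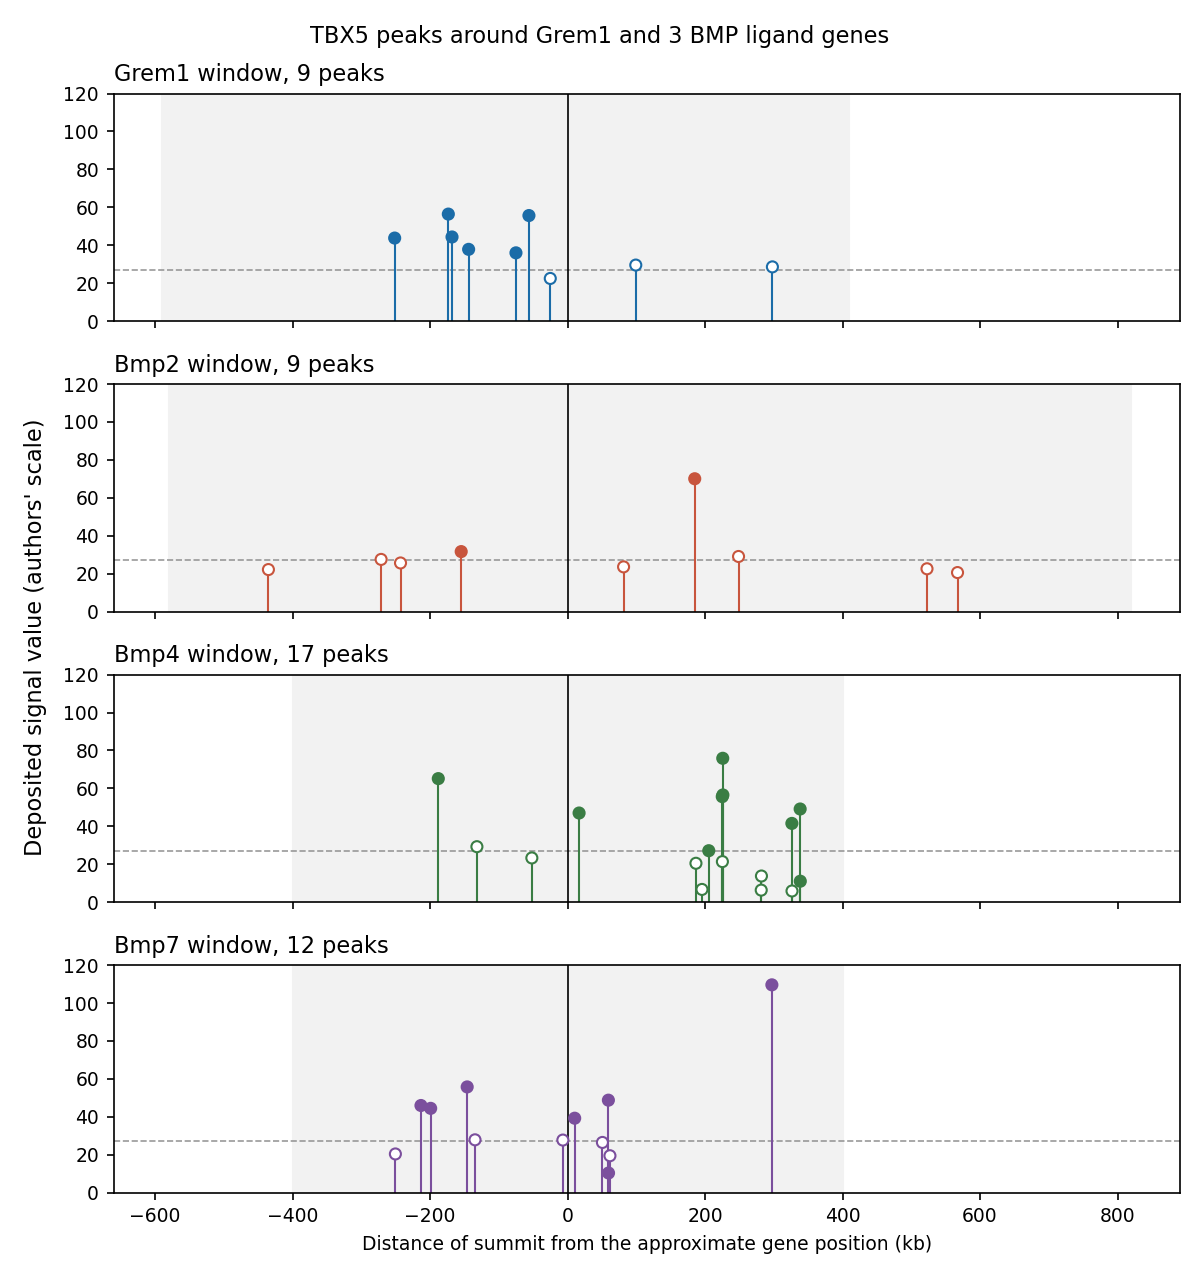
Deposited signal value of each of the 47 peaks against the distance of its summit from the approximate gene position in kb, 1 panel per window. Grey bands are the windows, the vertical line is the stated position (rounded to 10 kb for Grem1 and Bmp2 and to 100 kb for Bmp4 and Bmp7), filled points have a score of 1000, open points a lower score, and the dashed line is the list median of 27.2. Filled Grem1 points lie only on the lower side, 13 of 17 Bmp4 points lie at the upper end, and the highest point is the single Bmp7 peak of 109.6.

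The windows differed in peak density. There were 9.0 peaks per Mb around Grem1, 6.43 around Bmp2, 21.2 around Bmp4 and 15.0 around Bmp7, against 4.65 per Mb over the 11072 autosomal peaks and the span they cover. These are 1.94, 1.38, 4.57 and 3.23 times the autosomal density. Peaks of the list are unevenly spread, however, and many stretches of the genome are as dense. When the autosomes were divided into tiles of the window's own length, 16% of 2374 tiles held at least the 9 peaks of the Grem1 window and 25.9% of 1692 tiles at least the 9 of the Bmp2 window. Of 2971 tiles of 0.8 Mb, 2.46% held at least the 17 peaks of the Bmp4 window and 5.82% at least the 12 of the Bmp7 window. No test was made of these counts, since the windows are single regions and peaks are not replicates.

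**Figure D2:**
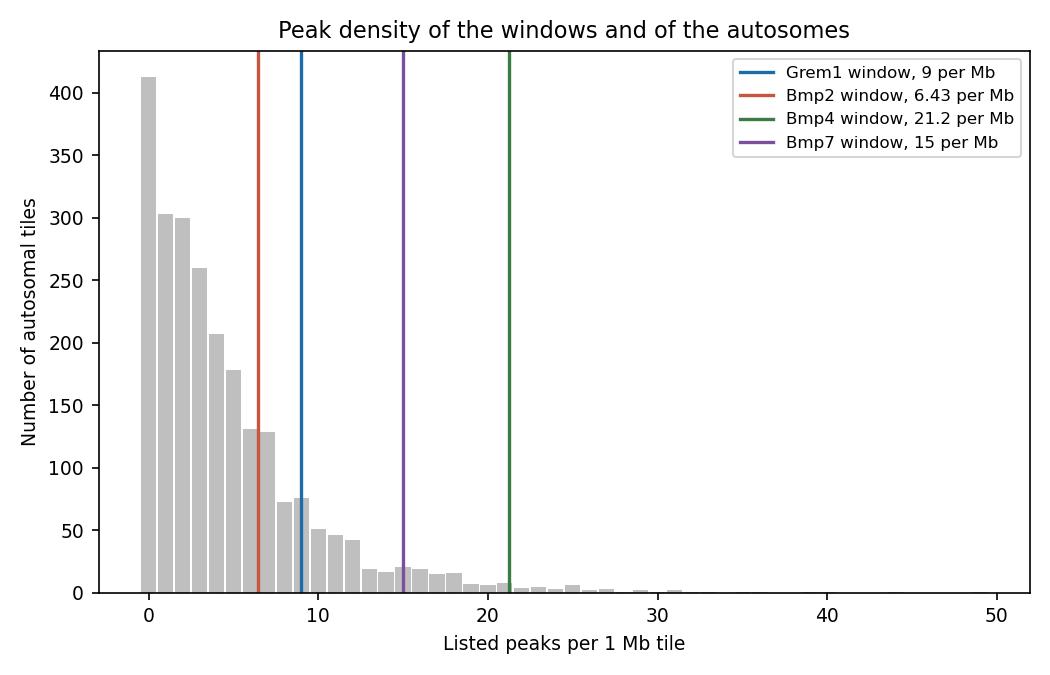
Number of autosomal tiles of 1 Mb by the number of listed peaks they hold (bars), with the peak density of the 4 windows per Mb as vertical lines. The Bmp2 window (1.4 Mb) and the Bmp4 and Bmp7 windows (0.8 Mb each) differ in length from the tiles, so their lines are scaled densities. The median tile holds 3 peaks, the Bmp2 and Grem1 lines (6.43 and 9.0) stand within the slope of the distribution, and the Bmp7 and Bmp4 lines (15.0 and 21.2) in its upper tail.

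The Bmp4 count depended on how peaks were counted and on the build. With overlapping or touching intervals joined it was 12, and the other windows then held 9 (Grem1), 9 (Bmp2) and 11 (Bmp7). At an IDR of 0.01 or below it was 11. If the list were on GRCm38, as the library names say, 400 kb to either side of the RefSeq Bmp4 gene would hold 5 peaks in place of 17. The same windows around Grem1, Bmp2 and Bmp7 would hold 11, 6 and 9. Taking the list as GRCm38 means applying no shift. In the same list, the summits around Bmp2 met fewer GRCm38 start sites unshifted, 8, than at a shift of 174 kb, 26.

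Recurrence between the replicates was read from the score. A score of 1000 was given to 24 of 47 peaks (51.1%, exact 95% Clopper-Pearson interval 36.1 to 65.9%), against 45.4% of all listed peaks. By window these were 6 of 9 for Grem1, 2 of 9 for Bmp2, 9 of 17 for Bmp4 and 7 of 12 for Bmp7. An IDR of 0.01 or below was reached by 35 peaks (74.5%, interval 59.7 to 86.1%), against 60% of the list. The intervals cover counting only and treat neighbouring peaks as independent, and both include the share of the list.

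The median signal of the members was 29.1, and 29 of 47 (61.7%, interval 46.4 to 75.5%) exceeded the list median of 27.2. Only 4 (8.51%, interval 2.37 to 20.4%) were among the 10% of listed peaks with the highest signal, a set that begins at a signal of 61.3. These were the lone Bmp7 peak, the strongest peak of the Bmp4 run, the strongest Bmp2 peak and the first Bmp4 peak, with signals of 109.6, 75.9, 70.1 and 65.2. No Grem1 peak was among them. The median of the Grem1 window, 37.9, was the highest of the 4 in the full list. With summits within 500 bp joined, or at a q-value of 0.05 or below, Bmp7 was higher at 39.3, and at an IDR of 0.01 or below Bmp4 (47.0) and Bmp7 (41.9) both exceeded Grem1 (40.9). A q-value above 0.05 was found for 4 peaks (8.51%), of which 3 were around Bmp4 and 1 around Bmp7, against 6.07% of the list.

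**Figure D3:**
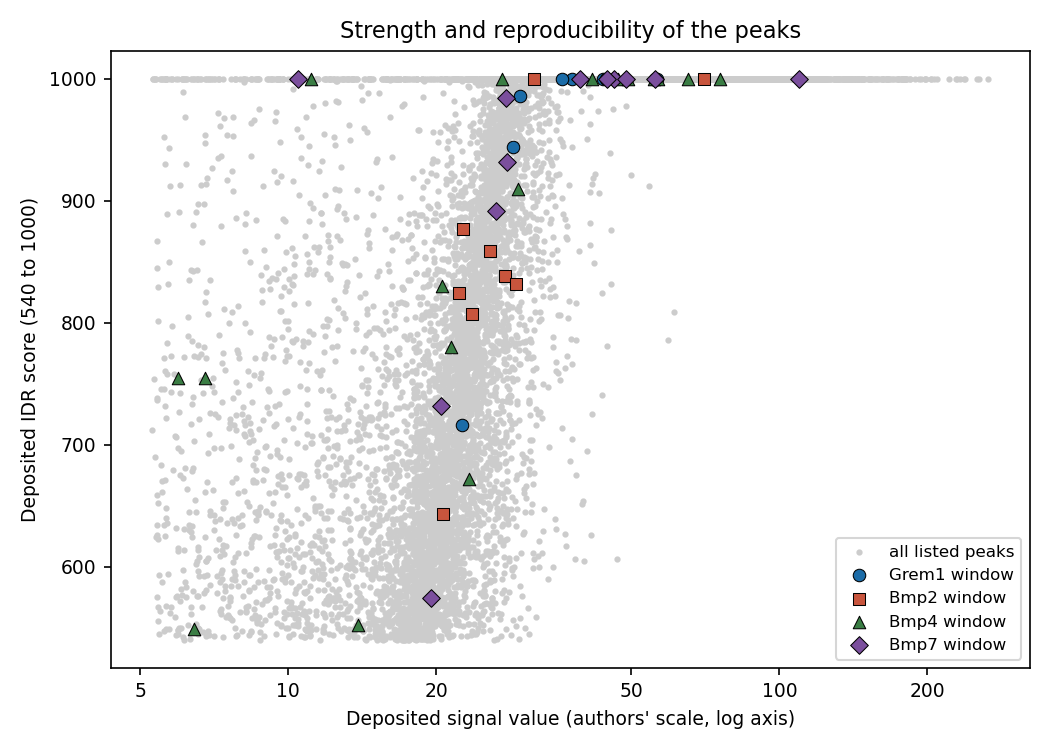
Deposited IDR score against deposited signal value (log axis) for all 11224 listed peaks in grey and the 47 members in colour, with 1 marker shape per window. All members above a signal of 32 have a score of 1000, and 2 members reach that score with signals of 10.4 (Bmp7) and 11.1 (Bmp4). The shares of all listed peaks with that score in these signal ranges were not counted, so neither trait can be called particular to the members.

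Peak width tracked strength among the members. The common width of the list, 416 bp, was shared by 34 of 47 members (72.3%, interval 57.4 to 84.4%), against 84.3% of listed peaks, and these 34 had a median signal of 26.9. The other 13 were all narrower, from 123 to 326 bp, and had a median signal of 55.7. They comprised 3 Grem1 peaks, 1 Bmp2 peak, 6 Bmp4 peaks and 3 Bmp7 peaks. Of the 13, 12 (92.3%) had the ceiling score, the exception being the peak of signal 21.4 in the Bmp4 run. In the list, 1736 of 1765 peaks of other widths (98.4%) had that score. The strongest peak of each window was among the 13 narrower members. In the whole list the median signals were 24.8 for the common width and 66.9 for other widths. A higher signal at other widths is therefore not particular to these loci. Those other widths ran from 104 to 751 bp, and the narrower peaks among them were not set apart.

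Close summits were found mainly around Bmp4. Another summit within 10 kb was present for 13 of 17 Bmp4 peaks, 4 of 12 Bmp7 peaks, 2 of 9 Grem1 peaks and 0 of 9 Bmp2 peaks. The total of 19 of 47 (40.4%, interval 26.4 to 55.7%) was near the 42.7% of the list. The interval treats peaks as independent, but close summits come in pairs and runs, so it is too narrow. All 6 pairs of summits within 500 bp were around Bmp4 (5) or Bmp7 (1), at distances of 200 to 315 bp. With summits within 500 bp joined, the share within 10 kb was 24.4% of the members against 28.3% of the list.

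The members at the window edges and the peaks just outside were as follows. Inside the Bmp7 window the last peak was its strongest (109.6), and the next one outside, at 173411675, had a signal of 19.2. On the other edge the first Bmp7 peak had 20.5 and the next outside, at 171672861, had 24.6. For Bmp4 the first peak had 65.2 and the next outside, at 46576513 and 23.5 kb from the edge, had 39.6 with a score of 1000, while above the window the last member had 11.1 and the next outside, at 47502129, had 18.1. For Grem1 the first and last members had 43.8 and 28.7, and their outer neighbours 22.8 and 14.7. The first and last members of the Bmp2 window had 22.2 and 20.7.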

How the data were processed

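TBX5 ChIP-seq libraries (2) and input libraries (2) of forelimbs were placed in groups by their titles. The analysis used the 1 deposited peak list, which has 10 columns in the narrowPeak layout and no header. The aligner, the peak caller and any pooling of reads are not given in the sources used here, and the submitters' processing notes name FastQC and mm10. The deposited score is the IDR score, judged from its values, since the lowest, 540, equals the whole-number part of -125 × log2(0.05). The deposited signal value is the peak caller's strength of a peak, on a scale that is not stated. The deposited −log10 q-value was turned into a q-value. The deposited p-value column holds -1 throughout and was not used.

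Positions were converted to 1-based ones, and members were the peaks whose summit fell in the 4 windows. The windows, members and lists were chosen with earlier results of these data known. Named peaks were, per window, the 5 of highest signal, the weakest, the one nearest to the stated gene position, the densest run and the peaks at the edges; further peaks and the groupings of neighbouring peaks were named after their values were seen. Tiles ran from the first summit of each autosome, and the partial last tile was left out. The table of start sites and gene order was RefSeq's for GRCm38.p6. Other BMP pathway genes (receptors, SMADs, further antagonists and targets) and motifs within peaks were planned and not analysed here, as no annotation or genome of the list's build was used. Joining, tiling and the shift count were tested on simulated data. Python 3.11.15, NumPy 2.4.6, pandas 2.3.3, SciPy 1.17.1 and matplotlib 3.10.9 were used.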

Additional observations from a re-analysis of the deposited data

How the results depend on the processing

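Of 76 alternative values, 66 stayed within 1.5 times the main value or, for the share of close summits, within its 95% interval, and 10 moved. That interval treats peaks as independent and serves only as a fixed limit. For Bmp4 and Bmp7, equal windows of 400 kb to either side are the main windows themselves, so those values could not move. The shares within 2 kb and 50 kb can only lie at or below, and at or above, that within 10 kb. The tally is therefore not a measure of robustness. No density ratio changed to the other side of 1. The 12 values that take the list as GRCm38 were chosen after seeing the data, and the other 64 alternatives were planned. The Bmp4 count of 17 was 11 at an IDR of 0.01 or below, 9 when the weaker 50% of the list was left out and 5 with the list taken as GRCm38. The Bmp2 count of 9 was 4 without that weaker 50%. The Bmp4 median signal of 27.2 was 47.0 at an IDR of 0.01 or below, where fewer weak peaks are left. With the list taken as GRCm38, the density ratio was 1.35 in place of 4.57 for Bmp4 and 2.96 in place of 1.94 for Grem1. The share of members with another summit close by, 40.4% within 10 kb, was 25.5% within 2 kb, 72.3% within 50 kb and 24.4% within 10 kb after summits within 500 bp had been joined. In the whole list these shares were 42.7%, 28.9%, 66.8% and 28.3%.

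No paired analysis was possible because values of single replicates are not part of the peak list. Leaving out each replicate in turn could not be done either. Without read depth the list cannot show which sites were missed for lack of reads.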

Other observations

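The q-value did not follow the signal in the middle of the range. In the Bmp2 window, the summit at 132944746 with a signal of 22.2 had a −log10 q-value of 3.74, and that at 133628653 with a signal of 29.1 had 3.54. Over the list, the median −log10 q-value was 3.63 for the 1429 peaks with signals from 24 to 28 and 3.52 for the 1082 peaks with signals from 28 to 32. Ranking these peaks by q-value and by signal would therefore give different orders, and the cause was not tested.

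Among the members, 2 peaks combined the ceiling score with a signal below 15. The share of all listed peaks that do so was not counted, so it is not known whether this is usual. The 2 members were the Bmp7 peak at 172759517 (signal 10.4, 203 bp from a summit of 48.8) and the Bmp4 peak at 47338484 (signal 11.1, 200 bp from a summit of 49.2). Both lay beside a stronger peak that also had a score of 1000, and whether the neighbour bears on their score was not tested.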
